A study of Mus musculus with 2 samples.

Results

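Integrins are the paired receptors by which cells hold on to matrix and to each other, and the values below are those of 10 of their subunits, Itgam, Itgax, Itgal, Itgb2, Itgb1, Itga4, Itga6, Itgav, Itgb5 and Itgb7, in mouse macrophages with and without Trem2. The subunits were taken by gene symbol from a table of 11349 protein-coding genes. The 10 symbols gave 11 rows, because Itgam stands in the table under 2 gene identifiers. The cells were primary macrophages from the abdominal cavity, and both groups had received the growth factor TGF-β1 for 24 h. The groups were WT cells (the column is headed C57) and cells labelled TREM-2-/- in their title, whose genotype label reads knockdown, with 1 library each. The sources used here do not say whether animals were pooled, nor their strain or age. No difference can be checked on replicates, and every comparison below is between these 2 libraries.

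An integrin is a pair of an α and a β chain. In leukocytes the β2 chain pairs with the αM, αX and αL chains to bind complement fragments, fibrinogen and the ICAM adhesion molecules, while β1 pairs with α4 to bind fibronectin and VCAM-1 and with α6 to bind laminin, and β7 pairs with α4 and αE. Integrins with the αv chain bind matrix proteins and can release TGF-β from its latent complex. Peritoneal macrophages are known for high αM and β2, and αX is widely used as a marker of dendritic cells and of some activated macrophages.

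Values are FPKM, fragments scaled for gene length and library size. Depth, read from how low values step, was estimated at 13.5 M fragments in the WT library and 12.4 M in the knockout library, so each subunit rests on 117 to 13586 fragments per library. Intervals are exact (Clopper-Pearson) 95% intervals, and cover counting error at this depth only. Trem2, the targeted gene, stood at 135 FPKM (WT) and 13.7 FPKM (knockout), 9.91-fold lower (interval 9.23 to 10.7), and so was not at 0 in the library labelled TREM-2-/-. The macrophage markers Lyz2 (7962 and 10170 FPKM), Cd68 (1169 and 1512 FPKM), Adgre1 (133 and 148 FPKM) and Csf1r (46.1 and 53.1 FPKM) were high in both libraries. Of 12 macrophage markers 11 are listed, 5 of them lower by 2-fold or more without Trem2, as were 13.7% of all genes, and 5 also relative to the median of all genes (6.57% of genes), among them Gata6 (14.0 and 2.67 FPKM), the factor of resident peritoneal macrophages. Markers of other cells summed in WT and knockout to 52.9 and 25.03 FPKM for neutrophils (4 of 8 listed), 9.59 and 10.6 FPKM for B cells (3 of 6), 5.92 and 1.41 FPKM for endothelium (2 of 6) and 163 and 41.5 FPKM for platelets (1 of 6, Pf4), and their part in the values below was not tested. The median log2 fold change of the 9962 genes that average at least 1 FPKM was -0.31. Log2 fold changes and all counts past 2-fold are on the log2(FPKM + 1) scale, which understates the change of low genes, while ratios and folds with an interval are of plain FPKM. Because the median is not 0, log2 fold changes are also given relative to it.

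Itgam encodes αM (CD11b), and its rows differ in how the transcript ends. The first, ENSMUSG00000030786.18, lies on chromosome 7 from 128062640 to 128118491 (mm10, + strand). The second, ENSMUSG00000108596.1, runs from 128062683 to 128128160 and ends upstream of Itgax. The table calls both Itgam, while GENCODE release M21 calls the second Gm49368. The main transcripts of the rows, ENSMUST00000106242.9 and ENSMUST00000098015.9, have 30 exons each and share 29 of them, apart from the first bases of exon 1. They part at the last exon, at chr7:128117306-128118490 in the first row and chr7:128126808-128128160 in the second. The sequences below show that parting, since it is all that sets the coding parts of these transcripts apart. Small letters are the last 30 coding bases of the shared exon 29 and capitals are 72 coding bases of each row's own last exon (GENCODE M21, mm10, + strand, 5′ to 3′).
Itgam, first row: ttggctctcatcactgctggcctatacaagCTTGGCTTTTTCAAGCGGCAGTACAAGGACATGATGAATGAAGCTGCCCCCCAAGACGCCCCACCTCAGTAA
Itgam, second row: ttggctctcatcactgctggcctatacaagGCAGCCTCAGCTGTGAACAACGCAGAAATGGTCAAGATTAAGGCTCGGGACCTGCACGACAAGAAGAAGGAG
In the first row the 72 bases end with the stop codon. They begin with codons for the membrane-proximal motif of integrin α tails, where the β chain's tail is held, which translation of the coding sequence found in 3 of 4 long coding transcripts of this row. In the second row the reading frame goes on for 309 bases of its last exon, and its long coding transcript does not hold that motif. From the start of this last exon, 409 bases aligned to a transcript of Rpl35, a ribosomal protein gene, with 87.1% identity. A processed pseudogene, Gm45700, is annotated over 347 bases of the same exon on the same strand. Of 72 positions in the capitals, 24 hold the same base in both rows.

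**Figure D1:**
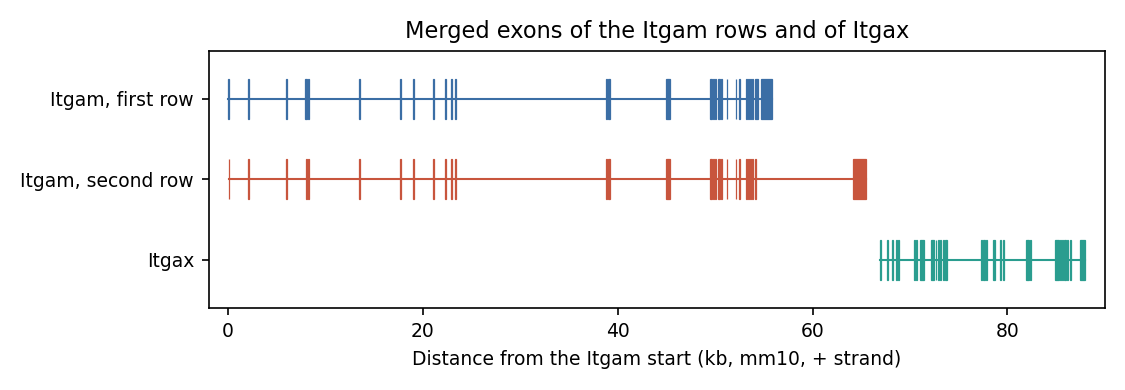
Merged exons of the Itgam rows and of Itgax, drawn to scale as distance in kb from the start of Itgam on the + strand (mm10). Before the last exon the rows' merged exons lie at the same places, with some edges that differ because the first row merges several transcripts, and the second row's last exon lies between the end of the first row and Itgax.

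The rows stood on opposite sides between the libraries. The first was at 33.7 FPKM (WT) and 42.7 FPKM (knockout), a ratio of 1.27 (interval 1.20 to 1.34). The second was at 92.7 FPKM (WT) and 41.2 FPKM (knockout), 2.25-fold lower (interval 2.15 to 2.36). In the WT library the second row thus stood well above the first, and in the knockout library they were nearly level. By estimated fragments the second row held 72.5% of Itgam in WT (interval 71.5% to 73.4%) and 48.0% in the knockout (interval 46.6% to 49.4%).

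The rows share 3450 exon bases, 68.7% of the first row's and 71.8% of the second's. Of all stretches of 100 bases in their transcripts, 64.3% and 75.5% also occur in another gene's transcripts, so a fragment often fits either row and the split depends on how the quantifier divided it. Rpl35, which the second row's last exon resembles, was at 368 FPKM (WT) and 615 FPKM (knockout). How many fragments of the second row came from that exon was not tested, as a value per gene does not show it. The sum over both rows was 126 FPKM (WT) and 83.8 FPKM (knockout), 1.51-fold lower (interval 1.46 to 1.56). If each fragment was counted once, the sum depends little on that split, since the rows' exons total 5024 and 4803 bases. The sources used here do not say whether shared fragments were counted in both rows. Against the all-gene median the log2 fold change of the sum was -0.28, against 0.64 for the first row and -0.85 for the second.

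The promoters of Itgam and its neighbour Itgax are shown because both Itgam rows start within the first and the neighbours' values diverge. They cover 250 bases before to 50 after the start (RefSeq, GRCm38.p6, + strand, 5′ to 3′), chr7:128062390-128062689 and chr7:128129300-128129599. Capitals mark GAGGAA, a motif of PU.1, a transcription factor of macrophages, searched on both strands (TTCCTC on the printed strand for the reverse). Shorter forms such as GGAA, which the Itgax window also holds, were not counted.
Itgam promoter: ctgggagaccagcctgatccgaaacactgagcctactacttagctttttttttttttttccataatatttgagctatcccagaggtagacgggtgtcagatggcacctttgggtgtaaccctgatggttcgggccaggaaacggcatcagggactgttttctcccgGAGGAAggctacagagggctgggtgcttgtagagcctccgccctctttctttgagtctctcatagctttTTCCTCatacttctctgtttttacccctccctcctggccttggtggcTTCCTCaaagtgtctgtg
Itgax promoter: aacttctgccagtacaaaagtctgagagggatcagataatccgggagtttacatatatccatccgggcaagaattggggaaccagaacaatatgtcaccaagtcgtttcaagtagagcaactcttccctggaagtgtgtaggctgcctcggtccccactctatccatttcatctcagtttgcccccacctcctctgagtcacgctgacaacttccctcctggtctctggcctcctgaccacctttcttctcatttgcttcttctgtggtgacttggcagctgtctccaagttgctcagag
The Itgam window holds 3 matches and the Itgax window 0, where 28.3% of 32851 promoters of 300 bases hold at least 1. The core motif of Sp1, GGGCGG on either strand, occurs once in the Itgam window and not in the Itgax window, against 35.7% of promoters. Of the 10 subunits 7 have an entry in this set of promoters, and GAGGAA matches number 2 in Itgav, 1 each in Itgb1 and Itgb7 and 0 in Itga4 and Itgb5. A match describes letters in the window and not binding.

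Among the 11 rows, 1 exceeded WT by 2-fold or more in the knockout, Itgax, where 3.48% of all genes were. At least 2-fold lower were 2 rows, Itga6 and the second row of Itgam, where 13.7% of all genes were. With the rows of Itgam summed, 1 of 10 subunits was higher and 1 lower, and the same counts hold for the 10 subunits against the all-gene median, where the shares of all genes were 7.66% and 6.57%. The median log2 fold change over the 11 rows was -0.32, close to that of all genes.

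**Figure D2:**
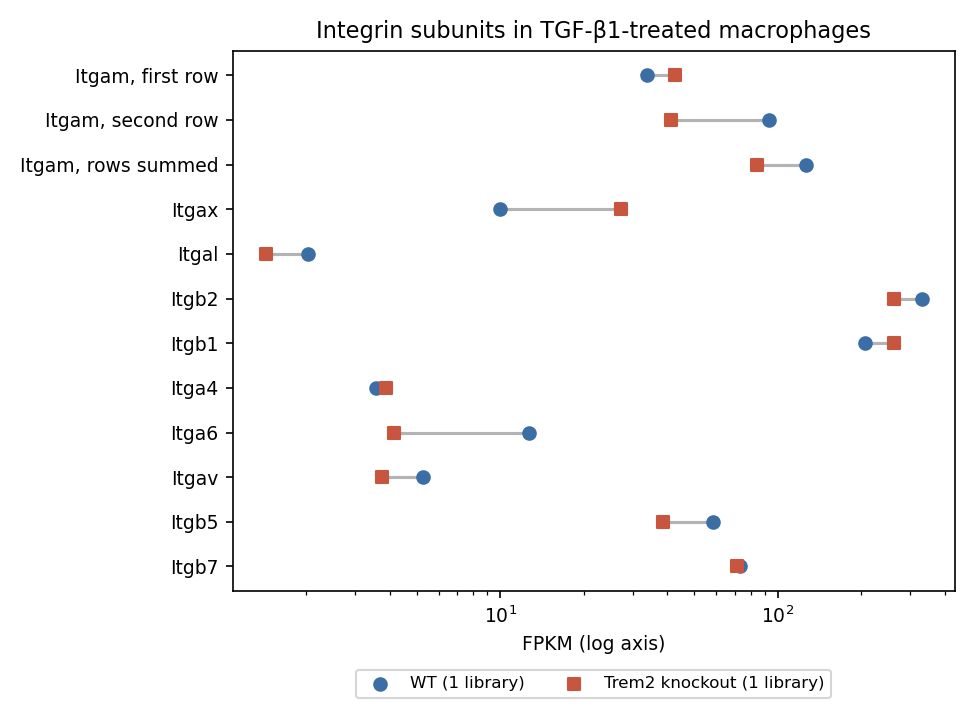
FPKM (log axis) of each subunit in the WT library (circles) and the Trem2 knockout library (squares), 1 library each, with lines joining the pair. Itgax stands to the right in the knockout library, Itga6 and the second row of Itgam to the left, and most other pairs lie close together.

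The β2 chain and its α partners come first. Itgb2 (CD18), the shared β chain of the leukocyte integrins, lies on chromosome 10 from 77530252 to 77565708 and was the highest subunit in WT, at 330 FPKM against 262 FPKM (knockout), 1.26-fold lower as deposited (interval 1.23 to 1.30), a direction that turns under the trimmed-mean scaling described below. Its log2 fold change of -0.34 was close to the median of all genes, -0.03 relative to it. Itgax (CD11c), which with β2 forms a complement receptor, lies on chromosome 7 from 128129547 to 128150657 and was at 10.02 FPKM (WT) and 27.1 FPKM (knockout). It was 2.71-fold higher (interval 2.47 to 2.97), with a log2 fold change of 1.35, or 1.66 against the all-gene median, and stood above 98.2% of all genes. Itgal (CD11a), whose pair with β2 binds ICAMs, lies on the same chromosome from 127296260 to 127335138 and was low in both libraries, at 2.04 and 1.43 FPKM. It was 1.42-fold lower in the knockout (interval 1.12 to 1.80), from 180 and 117 fragments. Itgad, the fourth α chain that pairs with β2, is not listed in the table.

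Ratios within a library do not depend on the scaling between libraries. Itgam made up 91.3% of the summed FPKM of the 3 listed β2-pairing α chains in WT and 74.6% in the knockout library. Itgax made up 7.24% in WT (interval 6.71% to 7.80%) and 24.1% in the knockout (interval 23.1% to 25.2%). Itgal was at 1.47% and 1.27%, with overlapping intervals. There was thus 12.6 times as much Itgam as Itgax in WT (interval 11.6 to 13.7) and 3.09 times as much in the knockout (interval 2.92 to 3.27). Itgam is here the sum of its rows, so these values also rest on how shared fragments were counted, which the intervals do not cover. Its first row alone was at 33.7 FPKM (WT) and 42.7 FPKM (knockout), beside 10.02 and 27.1 FPKM for Itgax. The summed α chains over Itgb2 were 0.419 in WT (interval 0.408 to 0.431) and 0.430 in the knockout (interval 0.417 to 0.443). In FPKM the mix of α chains thus differed, while their sum over the β chain did not differ beyond counting error. The sum depends on the gene lengths taken. Per length of the longest coding transcript Itgam was at 129 and 86.9, Itgax at 11.9 and 32.2 and Itgal at 2.56 and 1.80. Itgb2 was at 339 and 269. No interval was made on that scale, so whether the sum over Itgb2 also stayed level there was not tested.

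Itgax is also a dendritic cell marker. Of 8 dendritic cell markers 2 are listed, Fscn1 (10.5 and 11.8 FPKM) and Batf3 (1.72 and 0.666 FPKM), with a summed level of 12.2 FPKM (WT) and 12.5 FPKM (knockout). Flt3, Zbtb46, Xcr1, Clec9a, Cd209a and Ccr7 are not listed. Fewer cells of a type and less RNA per cell cannot be told apart in bulk libraries, here and for every subunit below. In shared stretches of 100 bases, 3.05% of Itgax also occurs in another gene, Itgad.

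**Figure D3:**
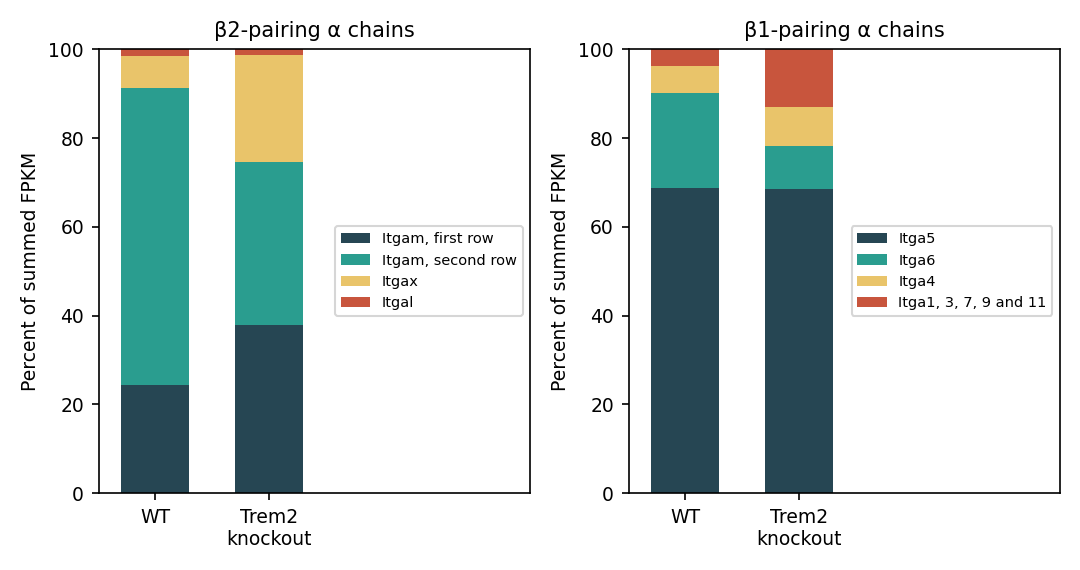
Share of each α chain in the summed FPKM of the α chains that pair with β2 (left) and with β1 (right), in percent, in the WT and the Trem2 knockout library (1 library each). On the left Itgax takes 7.24% in WT and 24.1% in the knockout, and on the right Itga6 takes 21.4% and 9.54%.

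The β1 chain and its partners followed another pattern. Itgb1 (CD29), the β chain of most matrix-binding integrins, lies on chromosome 8 from 128685654 to 128733200 and was at 206 FPKM (WT) and 263 FPKM (knockout), 1.28-fold higher (interval 1.24 to 1.31). Its log2 fold change was 0.35, or 0.66 against the all-gene median. Itgb2 over Itgb1 was 1.60 in WT (interval 1.56 to 1.64) and 0.995 in the knockout (interval 0.969 to 1.02), so β2 led in WT and the chains were level in the knockout library.

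Itga6 (CD49f), a laminin receptor chain, lies on chromosome 2 from 71745616 to 71858416. It was at 12.7 FPKM (WT) and 4.14 FPKM (knockout), 3.07-fold lower (interval 2.77 to 3.42). Its log2 fold change was -1.42, or -1.11 against the all-gene median, and 4.87% of all genes stood lower. Itga4 (CD49d), the chain that binds VCAM-1 and fibronectin, lies on the same chromosome from 79255426 to 79333123 and was at 3.57 and 3.87 FPKM, a ratio of 1.08 whose interval (0.973 to 1.21) holds 1. Itga4 shares 1124 exon bases with Cerkl on the opposite strand, itself at 0.556 and 0.212 FPKM. The libraries mark strand, but whether the counting used it was not stated in the sources, so Itga4 is uncertain by what Cerkl adds. The same holds for Itgav, which shares 634 exon bases with Gm13684 on the opposite strand, a gene that is not listed. Of stretches of 100 bases, 5.74% of Itgb5 and 3.71% of Itga6 also occur in other genes.

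Beside the 10 subunits, 7 of 17 other subunits of the family are listed. Itga5, the main fibronectin receptor chain, was at 40.9 and 29.8 FPKM and made up 68.7% of the summed β1-pairing α chains (αv, which has other β partners too, left out) in WT and 68.6% in the knockout. Itga6 made up 21.4% in WT (interval 20.4% to 22.4%) and 9.54% in the knockout (interval 8.71% to 10.4%), and Itga4 5.99% and 8.91%. The summed α chains over Itgb1 were 0.289 in WT (interval 0.279 to 0.299) and 0.165 in the knockout (interval 0.159 to 0.171). In FPKM, the listed β1-pairing α chains without αv thus summed lower against Itgb1 in the knockout library. This ratio also depends on the gene lengths taken, and it was not made per length of coding transcript. In the β2 family the summed α chains over Itgb2 were 0.419 in WT and 0.430 in the knockout, in FPKM.

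The other 5 listed β1-pairing chains were low, and their ratios are at the deposited scaling. Itga11, a collagen receptor of fibroblasts, was at 0.0144 FPKM in WT, about 1 fragment, and at 1.71 FPKM in the knockout, about 109 fragments, a ratio of 119 with a counting interval of 20.8 to 4717. Itga1, another collagen receptor, was at 0.248 and 0.895 FPKM (ratio 3.60, interval 2.72 to 4.90), Itga3, a laminin receptor, at 0.707 and 1.28 FPKM (ratio 1.81, interval 1.29 to 2.61), and Itga7 at 0.396 and 0.611 FPKM (ratio 1.54, interval 1.005 to 2.27). Itga9 was at 0.943 and 1.13 FPKM, within counting error. The Itga7 interval nearly reaches 1, and with a common total its ratio was 1.38. Of these chains only Itga9 reached a mean of 1 FPKM. Every listed gene reached 0.501 FPKM in at least 1 library, which Itga11, Itga1 and Itga7 did only in the knockout. These chains are thus listed only through the library where they are higher, and their direction is no evidence. All 12 stromal and mesothelial markers are listed, with a summed level of 155 FPKM (WT) and 130 FPKM (knockout). Of the 8 averaging at least 1 FPKM, 3 were lower by 2-fold or more and 0 higher. Against the all-gene median 2 were lower and 1 higher. Col3a1 stood at 34.2 and 66.7 FPKM, Dcn at 71.4 and 48.9 FPKM and Pdgfra at 29.3 and 6.0 FPKM. The list's mesothelial markers were all lower in the knockout, with Wt1 at 6.20 against 2.49 FPKM and Krt19 at 4.74 against 0.172 FPKM. But Krt19, Krt8, Msln, Upk3b and Lrrn4 reached 0.501 FPKM only in WT. They are thus listed only through the library where they are higher, and their direction is no evidence. The part of these markers in the Itga11 and Itga1 values was not tested.

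The αv chain and its partner β5, which bind vitronectin, were both lower in the knockout library at the deposited scaling. Itgav (CD51) lies on chromosome 2 from 83724397 to 83806916 and was at 5.30 and 3.77 FPKM, 1.41-fold lower (interval 1.26 to 1.58). Its partner Itgb5 lies on chromosome 16 from 33829665 to 33949153 and was at 58.3 and 38.5 FPKM, 1.51-fold lower (interval 1.42 to 1.61). Against the all-gene median their log2 fold changes were -0.10 and -0.28. Itgb5 over Itgav was 11.01 in WT (interval 10.2 to 11.9) and 10.2 in the knockout (interval 9.23 to 11.3), so that ratio did not differ beyond counting error. Itgb3, the other listed β partner of αv, was at 4.70 and 5.94 FPKM and took 7.46% of the summed β partners in WT (interval 6.73% to 8.25%) and 13.4% in the knockout (interval 12.2% to 14.6%). Itgb6 and Itgb8, known for activating latent TGF-β, are not listed.

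Itgb7, the β chain of gut-homing lymphocytes and mast cell progenitors, lies on chromosome 15 from 102215995 to 102231935. It was among the higher subunits here, at 73.3 FPKM (WT) and 71.1 FPKM (knockout), a ratio of 0.970 whose interval (0.918 to 1.03) holds 1 at the deposited scaling. With the median of ratios set to 1 the ratio was 1.21, and under the trimmed mean 1.28. Its level stood above 94.5% of all genes in WT and 94.2% in the knockout. Itgb7 over its partner Itga4 was 20.5 in WT (interval 18.9 to 22.4) and 18.4 in the knockout (interval 16.9 to 20.1), and its other partner Itgae is not listed. Of 7 mast cell markers 3 are listed, Cma1 (4.83 and 1.42 FPKM), Tpsb2 (3.67 and 0.732 FPKM) and Cpa3 (2.40 and 0.518 FPKM), with Kit, Fcer1a, Ms4a2 and Mcpt4 not listed. Their sum was 10.9 FPKM (WT) and 2.67 FPKM (knockout), and their part in the Itgb7 values was not tested. Of 10 T and NK cell markers 2 are listed, Thy1 (0.336 and 3.805 FPKM) and Lck (0.846 and 1.76 FPKM), and Cd3e, Cd3d and Cd3g are not.

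In order of level, with the rows of Itgam summed, WT ran Itgb2, Itgb1, Itgam, Itgb7, Itgb5, Itga6, Itgax, Itgav, Itga4 and Itgal. Each differed from the next beyond counting error. In the knockout library the order was Itgb1, Itgb2, Itgam, Itgb7, Itgb5, Itgax, Itga6, Itga4, Itgav and Itgal. There Itgb1 and Itgb2 (ratio 1.01, interval 0.979 to 1.03), Itga6 and Itga4 (ratio 1.07, interval 0.949 to 1.21) and Itga4 and Itgav (ratio 1.03, interval 0.914 to 1.16) did not differ beyond counting error. The levels are per length of all annotated exons, 13978 bases for Itga4 and 2743 for Itgb7, which lowers genes with many alternative exons. Per length of the longest coding transcript the order in WT was the same, and in the knockout Itgav (5.74 on that scale) passed Itga4 (5.53).

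The scaling between libraries sets the direction of some subunits. Under 4 scalings (as deposited, a common total, the median of ratios set to 1, and log ratios centred on their trimmed mean), 7 of 10 subunits kept their sign, with Itgam summed. Itgax ranged from 1.19 to 1.74 and Itga6 from -1.55 to -1.09 on the log2 scale, past 2-fold under each. Itgb2 ranged from -0.50 to 0.06, Itga4 from -0.04 to 0.42 and Itgb7 from -0.20 to 0.35, so their direction depends on the scaling. Itgal and Itgav kept their sign but came close to 0 under the trimmed mean, at -0.07 and -0.08, with ratios of 0.927 and 0.938. The second row of Itgam was lower under each, from -1.31 to -0.76, and passed 2-fold under 2 of 4.

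**Figure D4:**
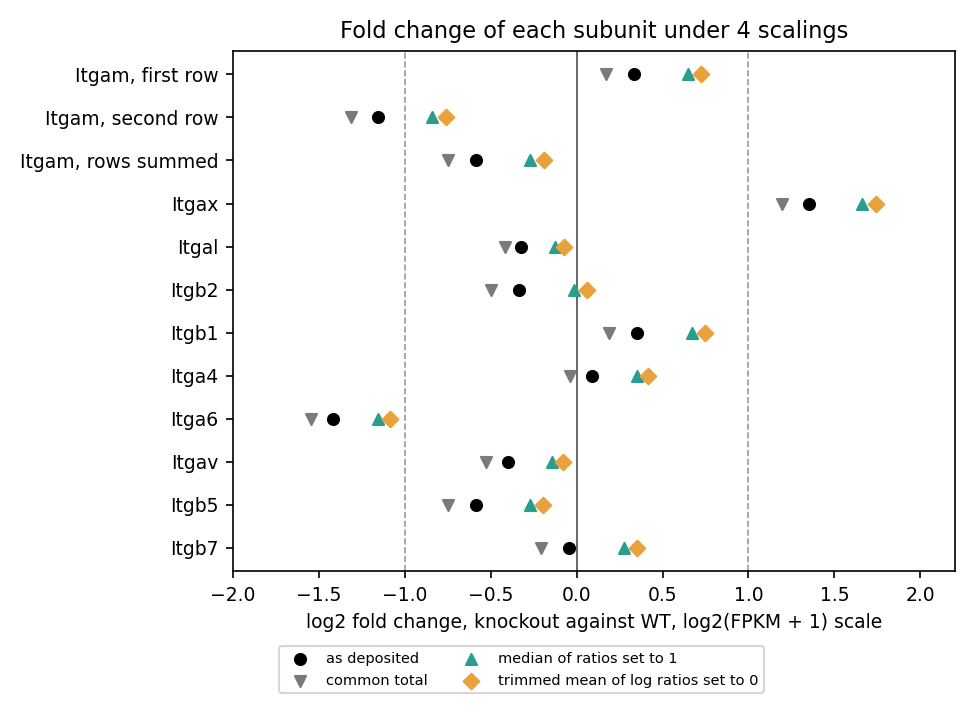
Log2 fold change of the knockout against the WT library on the log2(FPKM + 1) scale for each subunit, under 4 scalings (1 library each). Dashed lines mark 2-fold; Itgax lies right of them and Itga6 left under each scaling, while Itgb2, Itga4 and Itgb7 cross 0.

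Of the proteins that switch integrins on from inside the cell, 17 of 19 listed, 4 fell short of WT by 2-fold or more and 0 exceeded it so, or 1 and 1 against the all-gene median. Of all genes 13.7% were lower and 3.48% higher so, or 6.57% and 7.66% against their median. Their median log2 fold change was -0.39, against -0.31 for all genes. Flna, an actin cross-linker that binds β tails, was at 54.6 and 13.4 FPKM, 4.09-fold lower (interval 3.87 to 4.32). Fermt3 (kindlin-3), which leukocytes need to activate integrins, was at 73.1 and 30.1 FPKM. Sipa1, which turns off the GTPase Rap1, was at 13.9 and 6.14 FPKM, and Cib1, which binds α tails, at 15.9 and 7.32 FPKM.

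Among kinases and adaptors of the adhesion complex, 34 averaging at least 1 FPKM, 3 stood lower by 2-fold or more and 0 higher, or 2 and 0 against the all-gene median, where 13.7% of all genes were lower and 3.48% higher, or 6.57% and 7.66%. The list's median log2 fold change was -0.32, beside -0.31 for all genes. Parvg, a parvin of blood cells that links the kinase Ilk to actin, was at 17.9 and 6.42 FPKM, and Zyx, an adhesion-site protein, at 20.5 and 7.75 FPKM. Vav1, an exchange factor for Rac, was at 45.6 and 23.1 FPKM, within 2-fold on the log2(FPKM + 1) scale.

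Integrin ligands stood on both sides. Of 23 averaging at least 1 FPKM, 5 stood higher by 2-fold or more and 3 lower, or 7 and 2 against the all-gene median, with a median log2 fold change of 0.44 beside -0.31 for all genes. The shares of all genes were 3.48% higher and 13.7% lower, or 7.66% and 6.57% against their median. Ctgf and Cyr61, matrix-associated proteins that bind αv, αM and α6 integrins, measured 2.44 and 55.4 FPKM (Ctgf) and 7.60 and 68.2 FPKM (Cyr61). Col1a1, the chain of type I collagen, was at 48.1 and 171 FPKM, and Tgfbi, a matrix protein that binds αv integrins, at 13.9 and 3.92 FPKM. The list was drawn up with earlier results of these data known, so its direction is no independent evidence.

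Membrane partners and trafficking proteins of integrins had 0 of 23 at least 2-fold higher and 1 lower, or 3 and 0 against the all-gene median, with the same shares of all genes as background. The lower one was Slc3a2, the CD98 heavy chain that binds β tails, at 141 and 62.8 FPKM. Within 2-fold on the log2(FPKM + 1) scale were Rab21 (31.3 and 18.6 FPKM), which takes β1 integrins into endosomes, Rab4a (2.33 and 4.41 FPKM), which recycles them, and Cav1 (1.14 and 2.47 FPKM), whose plain ratio was 2.18. Of 9 genes for latent TGF-β and its receptors that average at least 1 FPKM, 1 was higher, Tgfb3 (2.80 and 9.62 FPKM), and 2 lower, Tgfbr1 (14.2 and 1.10 FPKM) and Nrros (40.4 and 7.36 FPKM), and so too against the all-gene median, beside those same shares. Nrros holds latent TGF-β1 on myeloid cells for αv integrins to act on, and Tgfbr2 was at 18.8 and 11.1 FPKM.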

How the data were processed

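RNA from 2 samples, 1 WT and 1 Trem2 knockout macrophage library, was made into strand-marked (dUTP) libraries, per the labels' protocols. The authors deposited FPKM values, as the header reads, and mm10 is the build in the submitters' processing notes. Aligner, quantifier and annotation were not given in the sources used here. Members and all gene lists were chosen with earlier results of these data known. Every listed gene reached 0.501 FPKM in at least 1 library, so a gene not listed may be low, and it was not analysed here.

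IDs matched GENCODE M21 by version and position in 9914 of 11349 genes. In 99.98% of 8969 genes with several transcripts FPKM times merged exon length had 6 decimals in both libraries. For Itgb5, Itgb7 and Itga5, whose version differs, the length that gives 6 decimals was used (3362, 2743 and 4442 bases). In single-transcript genes of low value, 56.0% of 91 WT and 69.9% of 133 knockout products lay within 0.1 of a whole step (20% by chance), and 300 steps were taken as 1 fragment. The depths, and the fragment numbers behind each interval and fragment share, are estimates made from the deposited FPKM.

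Fold changes compare log2(FPKM + 1) between knockout and WT in genes that average at least 1 FPKM, counted at 2-fold, with no test because each group has 1 library. Named are the members, the other listed subunits, up to 4 genes per pathway list with the largest absolute change, and markers past 2-fold or at a mean of 5 FPKM; some genes that this rule takes are not reported here, and Batf3 and Lck are named to complete their lists. Alternatives were pseudocounts, filters, thresholds and scalings (trimming 30% of the ratios and 5% of the levels at either end). Steps were tested on simulated fragments. The software was scipy 1.17.1, numpy 2.4.6, pandas 2.3.3 and matplotlib 3.10.9 in Python 3.11.15, with blastn for the Rpl35 alignment.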

Additional observations from a re-analysis of the deposited data

How the results depend on the processing

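Itgax stayed past 2-fold under pseudocounts of 0.1 and 5 FPKM and under each scaling. Itga6 stayed past it except with a pseudocount of 5 FPKM, where its log2 fold change was -0.96. The count of rows at least 2-fold lower, 2 in the main setting, was 1 with a pseudocount of 5 FPKM, with the median of ratios set to 1, with the trimmed mean of log ratios set to 0 and with the Itgam rows summed, the last chosen after seeing the data, as were the counts against the all-gene median and the order per coding transcript. At 4-fold 0 rows were higher and 0 lower. Over the 5 pathway lists together 6 of 106 genes were higher and 13 lower (347 and 1364 of all 9962 genes), against 13 and 7 under the trimmed mean (884 and 705 of all genes), 14 and 31 at 1.5-fold (995 and 3254), and 2 and 3 at 4-fold (51 and 113). Of 72 ratios and shares within a library recomputed with 1 FPKM added or without subunits under a mean of 1 FPKM, 37 stayed within the counting interval. The Itgax share and the β2 sum were among these. The summed α chains over Itgb1 became 0.326 in WT and 0.195 in the knockout with 1 FPKM added. No paired analysis was possible because WT and knockout have 1 library each. Among the 10 subunits counting error is widest for Itgal, at 117 fragments in the knockout, and variation between animals or cultures was not measured.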
